A study of Mus musculus with 12 samples.

Results

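Messenger RNA of 10 genes that import cystine or that make, reduce and break down glutathione was followed in cultured primary mouse hepatocytes. The members were taken by name: Slc7a11, Slc3a2, Cbs, Cth, Gclc, Gclm, Gss, Gsr, Chac1 and Ggct. Each name matched 1 of the 55487 gene identifiers in the count files, and all 10 were among the 13535 genes with enough reads to be tested. The 12 libraries form 4 groups of 3. Control cells had no pretreatment and no FAC, an abbreviation that the labels leave unexplained, and FAC cells had FAC alone. Lip-1+FAC cells were given liproxstatin-1, a scavenger of reactive oxygen species (ROS) in lipids, on day 2 of culture and FAC afterwards. MT+FAC cells were given Mito-TEMPO, a scavenger of mitochondrial ROS, on the same day and FAC afterwards. No group had a scavenger without FAC, so the effect of either scavenger alone cannot be told apart from its effect in FAC-treated cells. Doses, the duration of FAC and the strain, sex and age of the mice are not given in the sources used here, nor whether replicates came from separate animals or cultures. P-values then measure the spread between these samples, which may be technical.

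Glutathione is the main small thiol of the cell and is built from glutamate, cysteine and glycine. Hepatocytes obtain cysteine from imported cystine, through a transporter made of the light chain Slc7a11 and the heavy chain Slc3a2, and from methionine by transsulfuration, which Cbs and Cth carry out. Glutamate-cysteine ligase (catalytic subunit Gclc, modifier subunit Gclm) catalyses the rate-limiting step of synthesis and Gss completes the tripeptide. Gsr returns oxidised glutathione to the reduced form, Chac1 degrades reduced glutathione inside the cell, and Ggct acts on the gamma-glutamyl products of breakdown. Transcription of several of these genes is known to respond to NRF2, which binds antioxidant response elements, and to ATF4, which binds amino acid response elements. Glutathione is also the electron donor with which the peroxidase GPX4 reduces lipid peroxides, the lesions that drive ferroptosis.

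The upstream sequences of 3 members are shown for their expression patterns: Slc7a11 and Gclm ran in the same order over the 4 groups, and Chac1 was highest under FAC alone. Slc3a2 was also highest under FAC alone, and its sequence, without a match to the motifs searched below, is not shown. RefSeq promoter windows (build GRCm38.p6, 250 bases before to 50 bases after the gene's start) were at hand for 7 of the 10 members, all but Gclc, Gsr and Cth. Both strands were searched for the antioxidant response element core TGACNNNGC and the amino acid response element core TGATGNAA, which share no match in these members. In the 250 bases upstream, written 5′ to 3′ on the gene's strand, capitals mark the matches.
Slc7a11: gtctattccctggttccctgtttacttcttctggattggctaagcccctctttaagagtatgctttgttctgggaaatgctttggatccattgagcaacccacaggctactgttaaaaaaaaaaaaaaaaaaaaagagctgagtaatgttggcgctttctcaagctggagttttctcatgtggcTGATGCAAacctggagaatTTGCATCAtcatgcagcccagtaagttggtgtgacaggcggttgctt
Chac1: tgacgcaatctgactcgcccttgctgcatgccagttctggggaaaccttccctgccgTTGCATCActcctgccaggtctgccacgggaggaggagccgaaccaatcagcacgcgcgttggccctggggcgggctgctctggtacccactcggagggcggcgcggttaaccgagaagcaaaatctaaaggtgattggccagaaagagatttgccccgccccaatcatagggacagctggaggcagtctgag
Gclm: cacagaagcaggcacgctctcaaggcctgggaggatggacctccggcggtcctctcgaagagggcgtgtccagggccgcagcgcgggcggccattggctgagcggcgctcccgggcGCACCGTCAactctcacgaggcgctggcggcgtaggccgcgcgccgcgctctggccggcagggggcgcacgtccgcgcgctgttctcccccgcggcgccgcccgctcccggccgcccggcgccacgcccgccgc
The Slc7a11 stretch lies on the minus strand at chr3:50443614-50443863 and held 2 matches to the amino acid response element core, TGATGCAA starting 66 bases upstream of the RefSeq start on the gene's strand and 47 bases upstream on the opposite strand. Chac1 (plus strand, chr2:119350992-119351241) held 1 such match, 193 bases upstream on the opposite strand. Gclm (plus strand, chr3:122245307-122245556) held 1 match to the antioxidant response element core, TGACGGTGC, 134 bases upstream on the opposite strand. Of the other 4 windows, Ggct held 2 matches to the antioxidant core, 1 of them after the start, and Slc3a2, Gss and Cbs held neither motif. The upstream stretch of Slc3a2 (minus strand, chr19:8713898-8714147) lies inside the annotated span of the gene. The sequence before the 5′ end of that span was not searched. Among all 32851 RefSeq windows of the same 300 bases, 3.97% held the amino acid core and 12.4% the antioxidant core. These matches describe letters in the window, and no binding was measured.

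The libraries held 22991598 to 31683376 counts in genes, except the second FAC library with 52529278, whose file is marked as combined. All 7 hepatocyte markers were detected, with summed levels of 15700 to 16900 CPM (counts scaled to library size) in control and FAC libraries and 12500 to 14200 in pretreated libraries. Most of that sum was Alb. From control to FAC the means of Alb (9620 to 9880 CPM), Ttr (1480 to 1510), Apoa1 (3230 to 3470) and Serpina1c (173 to 219) were higher. Those of Cps1 (1700 to 711), Tat (71.0 to 38.5) and Hnf4a (385 to 319) were lower. In Lip-1+FAC and MT+FAC the means of Alb (8340 and 8530), Ttr (1100 and 1080) and Apoa1 (2190 and 2330) were below FAC. So were Serpina1c (77.4 and 65.7) and Tat (31.0 and 31.1). Cps1 was higher than under FAC in both (1030 and 1060), and Hnf4a was at 305 and 327. Of the 7 macrophage markers all were detected, with sums of 220 to 252 CPM in control, 285 to 319 in FAC and 112 to 170 in pretreated libraries. Most of these sums was Cd68 (means of 226, 295, 124 and 145 CPM for control, FAC, Lip-1+FAC and MT+FAC). The macrophage gene Clec4f stood near 1 CPM (1.10, 0.50, 0.907 and 1.17 in that order). From control to FAC the means of Cd5l (0.424 to 0.887), Vsig4 (0.691 to 0.80), Adgre1 (0.718 to 0.822) and C1qb (2.58 to 2.66) were higher. That of C1qa (1.14 to 0.962) was lower, as was that of Clec4f. The 5 cholangiocyte markers summed to 20.9 to 23.8 CPM in control, 58.0 to 74.3 in FAC and 12.4 to 20.1 in pretreated libraries, mostly Sox9, with Cftr at or near 0. The 7 stellate cell markers summed to 11.5 to 17.3 CPM in control, 20.9 to 22.2 in FAC and 10.2 to 12.8 in pretreated libraries. Reln made up most of the difference under FAC (mean 7.46 CPM in control and 16.1 in FAC), and Dcn, Col3a1, Col1a1, Pdgfrb and Lrat had lower means there. The 6 endothelial markers summed to 33.6 to 36.0 CPM in control and FAC and 24.9 to 29.7 in pretreated libraries, mostly Stab2 (means of 28.2, 26.5, 17.9 and 19.2 CPM for control, FAC, Lip-1+FAC and MT+FAC), whereas the Kdr and Pecam1 means were higher in pretreated libraries. Of the 5 leukocyte markers Cd3e and Ly6g were at 0, and the sum was at most 0.432 CPM. The mitochondrially encoded share of counts was 0.954% to 1.23% in control and FAC libraries and 0.639% to 0.798% in pretreated libraries. The part of these shifts in the results below was not tested. Fewer cells of a type and less RNA per cell cannot be told apart in these bulk libraries.

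FAC raised 6 of the 10 members, lowered 1 and left 3 uncalled. The 6 were Slc7a11, Slc3a2, Gclc, Gclm, Gsr and Chac1, and the gene that fell was Cbs. Calls are those of edgeR's quasi-likelihood test with p-values adjusted over all genes tested (threshold 0.05), which called 36.6% of all genes in this comparison, 17.5% as higher and 19.1% as lower. The members' median log2 fold change was 0.44, against -0.0061 over all genes tested. Against FAC alone, Lip-1+FAC libraries had 6 members higher and 2 lower, with 39.9% of all genes called (20.7% higher and 19.2% lower) and a members' median of 0.30, against 0.00063 over all genes. MT+FAC libraries had 4 members higher and 2 lower than FAC, with 40.9% of all genes called (21.2% higher and 19.7% lower) and a members' median of 0.20, against -0.0011. Both comparisons use the same FAC libraries. The direction differed between members: Chac1 and Slc3a2 were lower than under FAC alone, while Slc7a11 and Gss were higher.

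**Figure D1:**
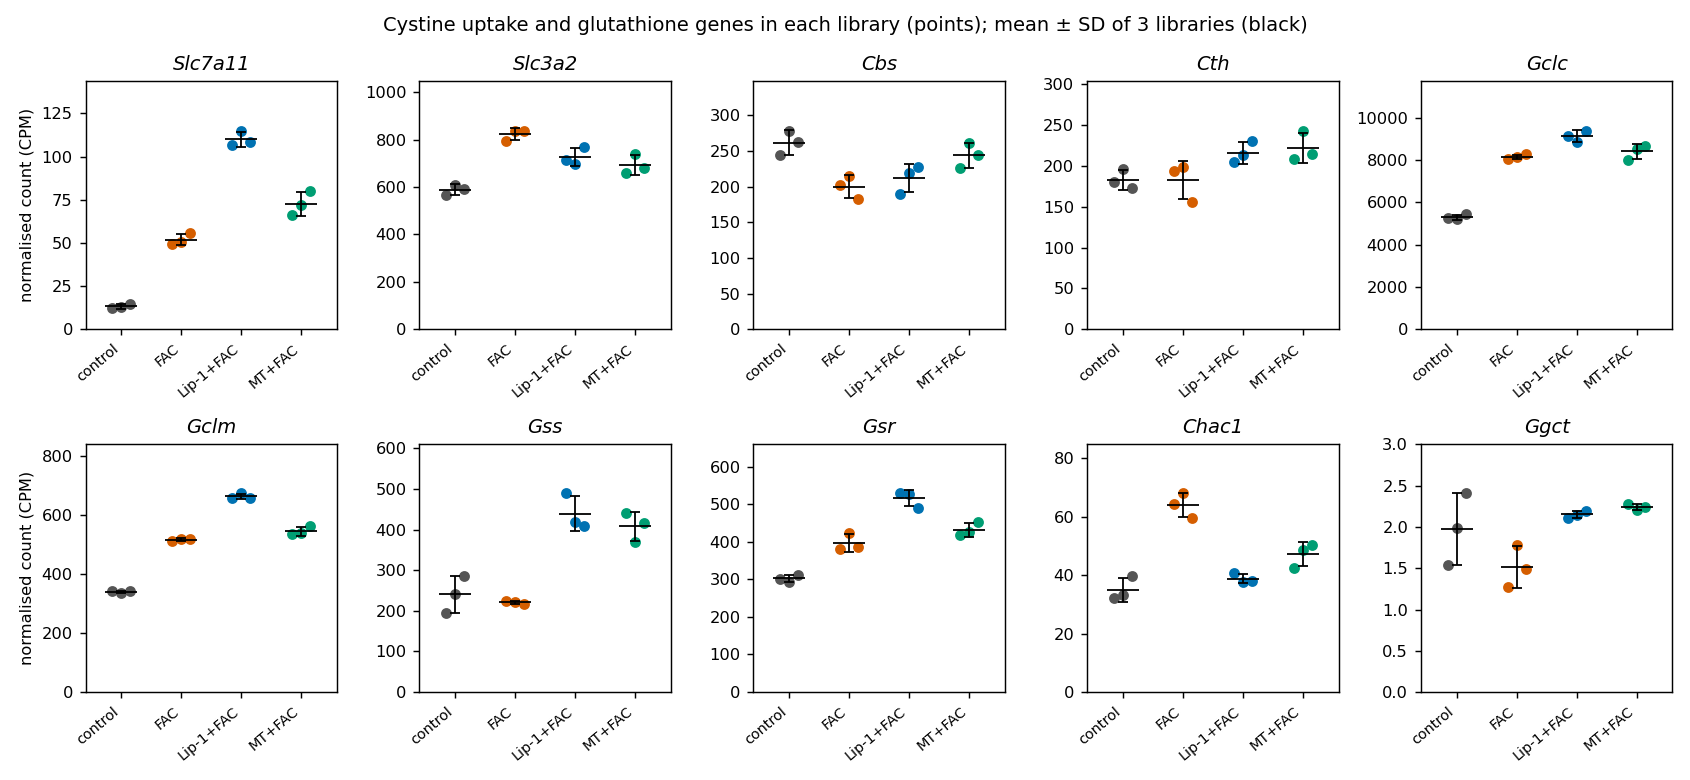
Normalised counts (CPM, y axis from 0) of the 10 genes in each of the 12 libraries (points, by group along the x axis), with the mean and SD of 3 libraries in black. Slc7a11 lies at 12.3 to 14.9 CPM in control libraries and 107 to 115 in Lip-1+FAC libraries, whereas Chac1 is highest under FAC alone.

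Slc7a11 (ENSMUSG00000027737, minus strand, chr3:49892526-50443614 in GRCm38), the light chain that carries cystine inwards in exchange for glutamate, had the largest FAC response of the 10. It stood at 12.3, 12.9 and 14.9 CPM in the control libraries, 49.5, 50.5 and 55.5 under FAC, 107, 115 and 108 under Lip-1+FAC, and 66.0, 71.8 and 80.1 under MT+FAC. No group overlapped another. FAC raised it 3.88-fold (log2 fold change 1.96 ± 0.089 SE, edgeR adjusted p = 9.13e-11), which ranks 63 from the highest of the 13535 genes. Scavenger pretreatment did not return it towards control. It rose a further 2.12-fold from FAC to Lip-1+FAC (1.09 ± 0.081 SE, edgeR adjusted p = 2.13e-08) and 1.40-fold from FAC to MT+FAC (0.48 ± 0.081 SE, edgeR adjusted p = 0.000137). It was lower in MT+FAC than in Lip-1+FAC (-0.60 ± 0.080 SE, edgeR adjusted p = 0.000579), a comparison in which 1.34% of all genes were called. Each neighbour in the order control, FAC, MT+FAC, Lip-1+FAC thus differed. Against control the folds were 8.25 in Lip-1+FAC, rank 6 of all genes, and 5.44 in MT+FAC, rank 8. A stretch of 373 of the 9223 bases of its longest transcript matches alpha-tubulin genes and pseudogenes at up to 96.5% identity, so reads from that stretch may have been split or left out.

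Slc3a2 (ENSMUSG00000010095, minus strand, chr19:8706882-8723369), the heavy chain that also partners other amino acid transporters, followed another order. It stood at 565, 609 and 593 CPM in control, 794, 838 and 836 under FAC, 716, 695 and 771 under Lip-1+FAC, and 659.8, 740.1 and 679 under MT+FAC. The FAC libraries were the highest and the control libraries the lowest, with the pretreated libraries between them and overlapping each other. FAC raised it 1.40-fold (0.48 ± 0.058 SE, edgeR adjusted p = 5.2e-06). It was lower in MT+FAC than in FAC (-0.25 ± 0.058 SE, edgeR adjusted p = 0.00251). It was also lower in Lip-1+FAC (-0.18 ± 0.058 SE, edgeR adjusted p = 0.0215), but this call was lost on leaving out any of FAC 2, FAC 3, Lip-1+FAC 1 or Lip-1+FAC 2 (-0.14 to -0.16). MT+FAC minus Lip-1+FAC was -0.07 ± 0.058 (SE, edgeR adjusted p = 0.675). Per kb of exon, light-chain RNA was 0.00574 ± 0.00054 of heavy-chain RNA in control (SD, n = 3), 0.016 ± 0.000782 under FAC, 0.0384 ± 0.00319 under Lip-1+FAC and 0.0266 ± 0.00288 under MT+FAC. The light chain stayed the scarcer message of the pair in every library.

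Of the transsulfuration enzymes, Cbs fell with FAC and Cth was not called. Cbs (ENSMUSG00000024039, minus strand, chr17:31608894-31637238), which joins homocysteine to serine, stood at 244, 278 and 263 CPM in control, 202, 214 and 182 under FAC, 189.9, 219 and 227 under Lip-1+FAC, and 226, 261 and 244 under MT+FAC. All FAC libraries lay below all control libraries, and the MT+FAC libraries overlapped control. FAC lowered Cbs to 0.764 of control (-0.39 ± 0.078 SE, edgeR adjusted p = 0.000786). It was higher in MT+FAC than in FAC (0.29 ± 0.078 SE, edgeR adjusted p = 0.00677), whereas the difference of 0.09 ± 0.078 (SE) between Lip-1+FAC and FAC was not called (edgeR adjusted p = 0.401). MT+FAC minus Lip-1+FAC was 0.20 ± 0.078 (SE), which missed the threshold (edgeR unadjusted p = 0.018, adjusted p = 0.242), and these libraries overlapped. Against control, Cbs stayed lower in Lip-1+FAC (-0.30 ± 0.078 SE, edgeR adjusted p = 0.00689), and the MT+FAC difference was not called (-0.10 ± 0.078 SE, edgeR adjusted p = 0.394).

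Cth (ENSMUSG00000028179, minus strand, chr3:157894248-157925077), which releases cysteine from cystathionine, stood at 180.0, 196 and 173 CPM in control, 193, 198 and 156 under FAC, 204, 213 and 230.1 under Lip-1+FAC, and 208, 243 and 215 under MT+FAC. Control and FAC libraries overlapped, and every pretreated library lay above all of them. No change was detectable between FAC and control (-0.002 ± 0.086 SE, edgeR adjusted p = 0.988). Cth was higher under Lip-1+FAC (0.24 ± 0.086 SE, edgeR adjusted p = 0.036) and under MT+FAC (0.28 ± 0.086 SE, edgeR adjusted p = 0.0152) than in FAC. Both calls rest in part on FAC 3, the lowest library: without it the values were 0.14 and 0.18 and neither was called. They were also lost in a fit with an offset for the GC content and length of each gene in each library (0.12 and 0.18). The Lip-1+FAC call was further lost without Lip-1+FAC 2 (0.25) or Lip-1+FAC 3 (0.19), among the compared libraries alone (0.23) and among genes of at least 5 CPM (0.22), and the MT+FAC call without MT+FAC 2 (0.20). Per kb of exon, Cth RNA was 1.88 ± 0.109 times Cbs RNA in control (SD, n = 3), 2.45 ± 0.139 under FAC, 2.74 ± 0.14 under Lip-1+FAC and 2.44 ± 0.0728 under MT+FAC. These ratios rest on annotated exon lengths of 2791 bases for Cth and 7485 for Cbs, which need not be the lengths transcribed here. Without length scaling, mean CPM of Cth was below Cbs in control (183.1 against 261.5), FAC (182.7 against 199.6) and MT+FAC (222.2 against 243.9). In Lip-1+FAC it was slightly above (215.8 against 211.9).

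Both subunits of glutamate-cysteine ligase rose with FAC. Gclc (ENSMUSG00000032350, plus strand, chr9:77754535-77794485), the catalytic subunit, stood at 5256, 5196 and 5434 CPM in control, 8058, 8131 and 8272 under FAC, 9156, 8835 and 9391 under Lip-1+FAC, and 8013, 8545 and 8675 under MT+FAC. Control libraries were lowest, and MT+FAC libraries overlapped FAC. FAC raised Gclc 1.54-fold (0.62 ± 0.053 SE, edgeR adjusted p = 8.86e-08). Lip-1+FAC was higher than FAC by 0.16 ± 0.052 (SE, edgeR adjusted p = 0.0194). That call was lost with offsets for GC content and length (0.065), without FAC 1 (0.16) and without Lip-1+FAC 3 (0.14). Neither MT+FAC minus FAC (0.045 ± 0.052 SE, edgeR adjusted p = 0.523) nor MT+FAC minus Lip-1+FAC (-0.12 ± 0.052 SE, edgeR adjusted p = 0.328) was called.

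Gclm (ENSMUSG00000028124, plus strand, chr3:122245557-122270732), the subunit that raises the enzyme's affinity for glutamate, varied little between replicates (coefficients of variation of 0.74% to 2.70% within groups). It stood at 343, 336 and 342 CPM in control, 513, 519 and 521 under FAC, 659.6, 674 and 659.6 under Lip-1+FAC, and 536, 539 and 563 under MT+FAC. No group overlapped another, although FAC and MT+FAC lay close together. FAC raised Gclm 1.52-fold (0.61 ± 0.047 SE, edgeR adjusted p = 2.95e-08), nearly the fold of Gclc. It rose a further 1.28-fold in Lip-1+FAC (0.36 ± 0.046 SE, edgeR adjusted p = 7.84e-06), a value of 0.22 with offsets for GC content and length. MT+FAC minus FAC was not called (0.076 ± 0.046 SE, edgeR adjusted p = 0.2), and MT+FAC was lower than Lip-1+FAC (-0.28 ± 0.046 SE, edgeR adjusted p = 0.00302). Per kb of exon, Gclm RNA was 0.0385 ± 0.000717 of Gclc RNA in control (SD, n = 3), 0.038 ± 0.000296 under FAC, 0.0436 ± 0.00187 under Lip-1+FAC and 0.0389 ± 0.00116 under MT+FAC. The Lip-1+FAC ratios, 0.042 to 0.0457, lay above all others. Other genes overlap 4.71% of the exonic bases of Gclm.

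Gss (ENSMUSG00000027610, minus strand, chr2:155563181-155592810), glutathione synthetase, was not called under FAC alone and was higher with either scavenger than under FAC. It stood at 195, 241 and 285 CPM in control, 224, 222 and 218 under FAC, 489, 419.7 and 409 under Lip-1+FAC, and 440.4, 369.6 and 415 under MT+FAC. The FAC libraries lay within the spread of control, and the pretreated libraries lay above both groups. FAC minus control was -0.12 ± 0.117 (SE, edgeR adjusted p = 0.472), and without control 1 it was called as a fall (-0.25). Gss was 1.98-fold higher in Lip-1+FAC than in FAC (0.99 ± 0.118 SE, edgeR adjusted p = 3.3e-05) and 1.84-fold higher in MT+FAC (0.88 ± 0.118 SE, edgeR adjusted p = 9.23e-05). MT+FAC minus Lip-1+FAC was -0.10 ± 0.117 (SE, edgeR adjusted p = 0.78). Other genes on the opposite strand overlap 15.4% of the exonic bases of Gss, and the counts do not use strand. The neighbour Acss2, which makes acetyl-CoA from acetate, is one of them, and it stood at 43.5 ± 3.54 CPM in control (SD, n = 3), 30.7 ± 0.69 under FAC, 61.8 ± 4.28 under Lip-1+FAC and 56.3 ± 3.63 under MT+FAC. Acss2 also rose from FAC to Lip-1+FAC (1.01 ± 0.079 SE, edgeR adjusted p = 3.47e-08) and to MT+FAC (0.88 ± 0.079 SE, edgeR adjusted p = 2.29e-07). Its part in the Gss counts was not tested.

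Gsr (ENSMUSG00000031584, plus strand, chr8:33652523-33698163), glutathione reductase, stood at 300.1, 294 and 313 CPM in control, 380.3, 423 and 387 under FAC, 529, 528 and 491 under Lip-1+FAC, and 419, 425 and 453 under MT+FAC. Control libraries were lowest and Lip-1+FAC libraries highest, while FAC and MT+FAC overlapped. FAC raised Gsr 1.31-fold (0.39 ± 0.057 SE, edgeR adjusted p = 3.33e-05), and Lip-1+FAC was 1.30-fold higher again (0.38 ± 0.057 SE, edgeR adjusted p = 3.8e-05). MT+FAC minus FAC was not called (0.12 ± 0.056 SE, edgeR adjusted p = 0.0914), but was called without FAC 2 (0.17). Gsr was lower in MT+FAC than in Lip-1+FAC (-0.26 ± 0.057 SE, edgeR adjusted p = 0.0303). That call was lost on leaving out Lip-1+FAC 1, Lip-1+FAC 2 or any of the 3 MT+FAC libraries (-0.23 to -0.29).

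Of the breakdown enzymes, Chac1 was called in both directions and Ggct in neither. Chac1 (ENSMUSG00000027313, plus strand, chr2:119351229-119354381), a gamma-glutamylcyclotransferase that cleaves glutathione, stood at 32.0, 33.2 and 39.8 CPM in control, 64.3, 68.0 and 59.7 under FAC, 40.6, 37.8 and 37.9 under Lip-1+FAC, and 42.6, 48.7 and 50.5 under MT+FAC. FAC libraries were the highest, MT+FAC libraries came next, and Lip-1+FAC libraries overlapped control. FAC raised Chac1 1.83-fold (0.87 ± 0.089 SE, edgeR adjusted p = 7.57e-07). It was lower than FAC under Lip-1+FAC (-0.72 ± 0.089 SE, edgeR adjusted p = 4.48e-06) and under MT+FAC (-0.44 ± 0.088 SE, edgeR adjusted p = 0.00066). With offsets for GC content and length these values were -0.425 and -0.225, and both stayed called. Lip-1+FAC minus control was not called (0.15 ± 0.090 SE, edgeR adjusted p = 0.23) but was called with those offsets (0.40) and without control 3 (0.25). MT+FAC stayed above control (0.43 ± 0.090 SE, edgeR adjusted p = 0.00259). The difference between the pretreated groups missed the threshold (0.28 ± 0.089 SE, edgeR adjusted p = 0.131), although their libraries did not overlap, and it was called with no filter on low counts (0.29). Ggct (ENSMUSG00000002797, minus strand, chr6:54982580-54992950), gamma-glutamylcyclotransferase, had only 35 to 93 counts per library, 1.28 to 2.41 CPM. It passed edgeR's test in no comparison, with a smallest unadjusted p of 0.0298 (MT+FAC vs FAC, 0.55 ± 0.231 SE), and DESeq2 gave no call either. With SEs of 0.229 to 0.235, smaller differences were not detectable at this depth.

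**Figure D2:**
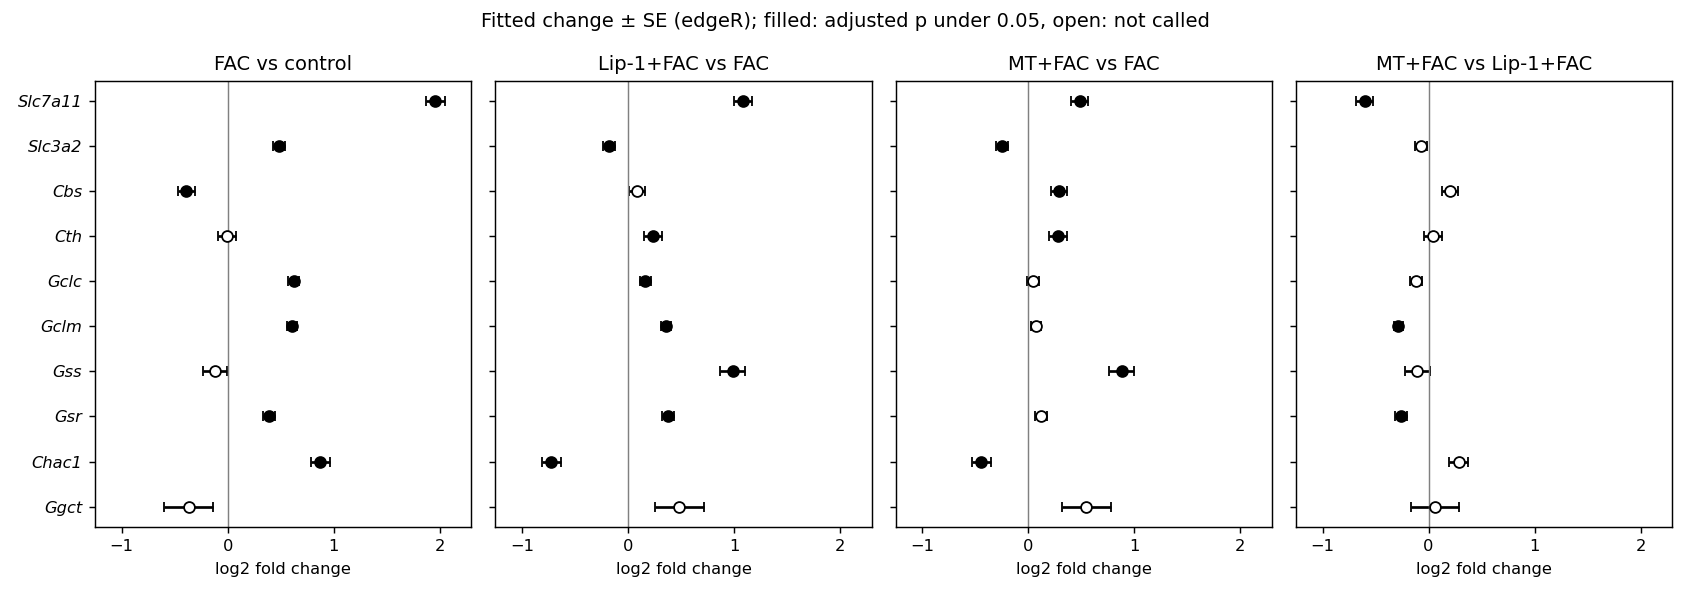
Fitted log2 fold changes (x axis) of the 10 genes (y axis) in 4 comparisons, with SE bars from edgeR; filled points passed an adjusted p of 0.05 and open points did not. Slc7a11 lies right of 0 in the first 3 panels, whereas Chac1 and Slc3a2 lie right of 0 for FAC vs control and left of 0 for each scavenger vs FAC.

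Against control, 7 of the 10 genes were higher in Lip-1+FAC (Slc7a11, Slc3a2, Gclc, Gclm, Gss, Gsr and Cth) and 1 was lower (Cbs), where 30.2% of all genes were called, 15.4% higher and 14.8% lower. In MT+FAC 8 were higher, those 7 and Chac1, and none lower, where 19.8% of all genes were called, 9.71% higher and 10.1% lower. None was lower in MT+FAC at an unadjusted p under 0.05 or with DESeq2. Gclc, Gclm and Gsr were 1.72-, 1.95- and 1.71-fold above control in Lip-1+FAC and 1.59-, 1.60- and 1.43-fold above it in MT+FAC. The 2 higher calls of Cth were the least firm of these. In Lip-1+FAC (0.24 ± 0.086 SE, edgeR adjusted p = 0.0472) the call was lost without control 1, control 3, Lip-1+FAC 2 or Lip-1+FAC 3 (0.19 to 0.25), with upper-quartile scaling (0.22), among genes of at least 5 CPM (0.23) and with offsets for GC content and length (0.27). In MT+FAC (0.28 ± 0.086 SE, edgeR adjusted p = 0.0305) it was lost without control 1, control 3, MT+FAC 2 or MT+FAC 3 (0.21 to 0.30). Between MT+FAC and Lip-1+FAC, 3 members were lower in edgeR's test, Slc7a11, Gclm and Gsr, and none was higher, where 0.879% of all genes were called as lower and 0.465% as higher. At an unadjusted p under 0.05 there, 2 members were higher, Chac1 and Cbs, and 4 were lower, those 3 and Gclc, against 6.54% of all genes higher and 6.72% lower. With DESeq2 none was called as higher.

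Library values separated groups for 7 members in FAC vs control, 9 in Lip-1+FAC vs FAC, 8 in MT+FAC vs FAC and 6 in MT+FAC vs Lip-1+FAC. Over all genes tested the same held for 46.2%, 50.8%, 52.9% and 19.8% in that order. Against control the groups were separate for 8 members in Lip-1+FAC vs control and for 8 in MT+FAC vs control, where 43.3% and 38.2% of all genes were so. Ggct was among those in both scavenger comparisons with FAC without being called, and Gclm was so in MT+FAC vs FAC.

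Levels within the pathway spanned a wide range. Scaled per kb of exon, Gclc had the highest level, 1410 ± 32.9 CPM per kb in control (SD, n = 3) and 2170 ± 28.8 under FAC, and its mean over the 12 libraries ranked 14 of 13526 genes with a length. Slc3a2 ranked 213, Gsr 300, Gclm 580, Cth 683, Gss 924, Cbs 1693 and Chac1 1811. Slc7a11 ranked 6406, with 0.958 ± 0.0984 CPM per kb in control and 7.90 ± 0.311 in Lip-1+FAC. Ggct came last of the members at rank 11941, with 0.255 ± 0.0561 CPM per kb in control. The library amplifies from an oligo-dT primer, and annotated exon length need not be the length transcribed here, so these ranks are approximate.

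**Figure D3:**
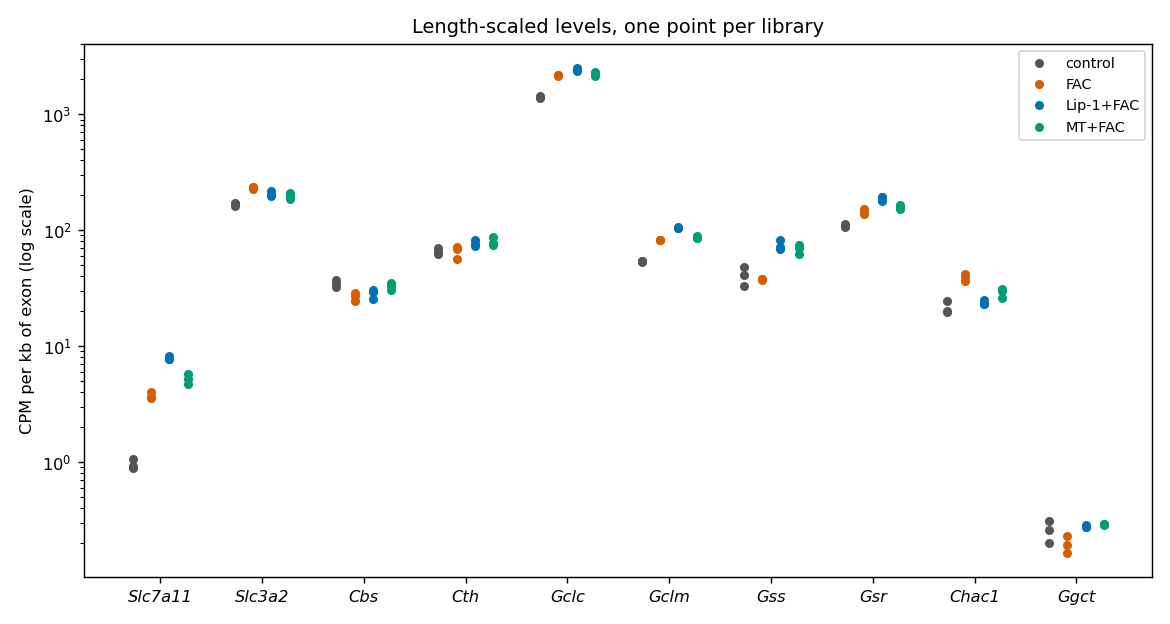
CPM per kb of exon (log y axis) of the 10 genes (x axis), one point per library, coloured by group. Gclc is the highest and Ggct the lowest of the 10 in every library.

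Across the 12 libraries, log2 CPM of Slc7a11 had a Pearson correlation of 0.993 with Gclm, 0.984 with Gclc, 0.971 with Gsr, 0.707 with Gss, 0.656 with Slc3a2, 0.553 with Cth, 0.341 with Chac1, 0.224 with Ggct and -0.545 with Cbs. Libraries of a group share their treatment, so these values describe the group pattern and are not 12 independent points. Among 9137 genes with a mean of at least 5 CPM, the 5 most like Slc7a11 were Gclm, Slc48a1 (0.986), Gclc, Txnrd1 (0.984) and Gsta1 (0.983), so that 2 of the 5 were other members. Slc48a1 encodes a heme transporter, Txnrd1 a thioredoxin reductase and Gsta1 a glutathione S-transferase. Txnrd1 means were 675 CPM in control, 1110 under FAC, 1490 under Lip-1+FAC and 1240 under MT+FAC. The 5 most like Chac1 were Trim27 (0.950), Ago2 (0.947), Myo10 (0.946), Tet3 (0.945) and Cxcl1 (0.942), and none of them was a member. For Cth they were Aars (0.919), an alanyl-tRNA synthetase, Atp6v0a2 (0.914), Rbm6 (0.913), Nat10 (0.912) and Ano10 (0.911).

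Around these 10 genes, 5 further lists described the supply and use of their substrates and their regulators. Their counts are read against the shares of all genes called above, and their medians against the medians of all genes. Of the 12 regulators, 8 rose and 1 fell with FAC, with a list median of 0.64. The largest rise was Maff, a small MAF partner of NRF2, from 23.8 ± 4.33 to 73.8 ± 3.42 CPM (SD, n = 3, log2 fold change 1.63, edgeR adjusted p = 3.51e-09). The gene that fell was Nfe2l2, which encodes NRF2, from 210 ± 16 to 171 ± 9.41 CPM (-0.29, edgeR adjusted p = 0.00252). Atf4, named after its values were seen, rose by 0.38 (edgeR adjusted p = 5.41e-05). Against FAC, 7 of the 12 fell and 1 rose in Lip-1+FAC, and 8 fell and 1 rose in MT+FAC, with list medians of -0.25 and -0.41. Maff fell by 1.04 and 1.54 on the log2 scale (edgeR adjusted p = 2.96e-07 and 9.4e-09). Nfe2l2 was the gene that rose, by 0.20 and 0.23 (edgeR adjusted p = 0.0261 and 0.011).

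Of 15 tested genes of the methionine cycle and amino acid supply, 3 rose with FAC (Slc7a5, Slc1a4 and Slc38a2, all amino acid transporters) and 6 fell, with a list median of -0.24. Slc7a5, another partner of Slc3a2, rose from 26.9 ± 5.35 to 51.8 ± 6.72 CPM (SD, n = 3, 0.95, edgeR adjusted p = 0.000168). It fell again by 0.96 in Lip-1+FAC (edgeR adjusted p = 0.000128). Bhmt, which remethylates homocysteine and so competes with Cbs for it, fell from 45.1 ± 11.4 to 19.7 ± 1.05 CPM with FAC (-1.20, edgeR adjusted p = 0.000212). It was higher than in FAC by 1.71 in Lip-1+FAC (edgeR adjusted p = 1.04e-05) and by 1.57 in MT+FAC (edgeR adjusted p = 2.48e-05). In each scavenger group 8 of the 15 were higher than in FAC and 5 lower, with list medians of 0.30 under Lip-1+FAC and 0.32 under MT+FAC. The 5 were Slc7a5, Gnmt, Ahcy, Slc3a1 and Slc38a2 in both. Gnmt, which consumes S-adenosylmethionine, fell by 0.69 in MT+FAC (edgeR adjusted p = 2.84e-07).

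Of 13 tested genes of cysteine catabolism and sulfide oxidation, 6 fell with FAC and the rest were not called, with a list median of -0.31. Against FAC, 7 rose and 3 fell in Lip-1+FAC, and 8 rose and 3 fell in MT+FAC, with list medians of 0.28 and 0.29. Csad, which acts on the path from cysteine to taurine, fell from 43.5 ± 5.30 to 18.5 ± 3.43 CPM with FAC (SD, n = 3, -1.23, edgeR adjusted p = 0.000534). It was higher than in FAC by 1.95 in Lip-1+FAC (edgeR adjusted p = 1.63e-05) and by 1.88 in MT+FAC (edgeR adjusted p = 2.57e-05). Cdo1, which oxidises cysteine in the step before Csad, was not called with FAC (-0.22, edgeR adjusted p = 0.0507). Against FAC it fell by 0.66 in Lip-1+FAC (edgeR adjusted p = 1.16e-05) and by 0.53 in MT+FAC (edgeR adjusted p = 0.000107). The other 2 genes that fell in both scavenger groups were Tst and Got2.

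Of 8 tested genes of the rest of the gamma-glutamyl cycle, 3 fell with FAC (Anpep, Ggt6 and Oplah) and the rest were not called, with a list median of -0.28. Anpep, an aminopeptidase that cleaves the dipeptide left by glutathione breakdown outside the cell, fell by 0.88 (edgeR adjusted p = 0.00323). It was higher than in FAC by 1.12 in Lip-1+FAC (edgeR adjusted p = 0.000475), where Ggact also rose. In MT+FAC Anpep was higher by 1.18 (edgeR adjusted p = 0.000337), and Ggact and Oplah also rose. The list medians there were 0.090 and 0.22.

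Of 18 genes of glutathione transport and glutathione-dependent reduction, 7 rose and 5 fell with FAC, and the list median of 0.047 was close to that of all genes. Abcc1, which exports glutathione and its conjugates, rose from 2.75 ± 0.359 to 10.1 ± 1.10 CPM (SD, n = 3, 1.87, edgeR adjusted p = 4.01e-07). Glrx, a glutaredoxin, fell by 0.76 (edgeR adjusted p = 8.83e-07), as did Slc25a10, Glo1, Glrx2 and Slc25a11. Against FAC, 5 rose and 4 fell in Lip-1+FAC (higher: Abcc2, Abcc4, Glo1, Glrx and Slc25a10; lower: G6pdx, Abcc1, Slco1a1 and Esd). In MT+FAC the same 5 rose, and Glrx5 fell beside the same 4. The list medians were 0.055 and 0.047. Abcc2, the canalicular exporter of glutathione conjugates, was higher than in FAC by 1.13 in Lip-1+FAC (edgeR adjusted p = 6.73e-09) and by 0.53 in MT+FAC (edgeR adjusted p = 3.07e-05). G6pdx, which supplies the NADPH that Gsr uses, fell by 0.87 (edgeR adjusted p = 0.000198) and 0.97 (edgeR adjusted p = 8.77e-05). Genes named for a small count in these lists, beyond the largest rise and fall, were named after their values were seen.

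Between MT+FAC and Lip-1+FAC, 3 genes of these 5 lists were called, each lower in MT+FAC: Abcc2 (-0.60, edgeR adjusted p = 0.000313), Maff (-0.50, edgeR adjusted p = 0.0191) and Kyat3 (-0.36, edgeR adjusted p = 0.0324).

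**Figure D4:**
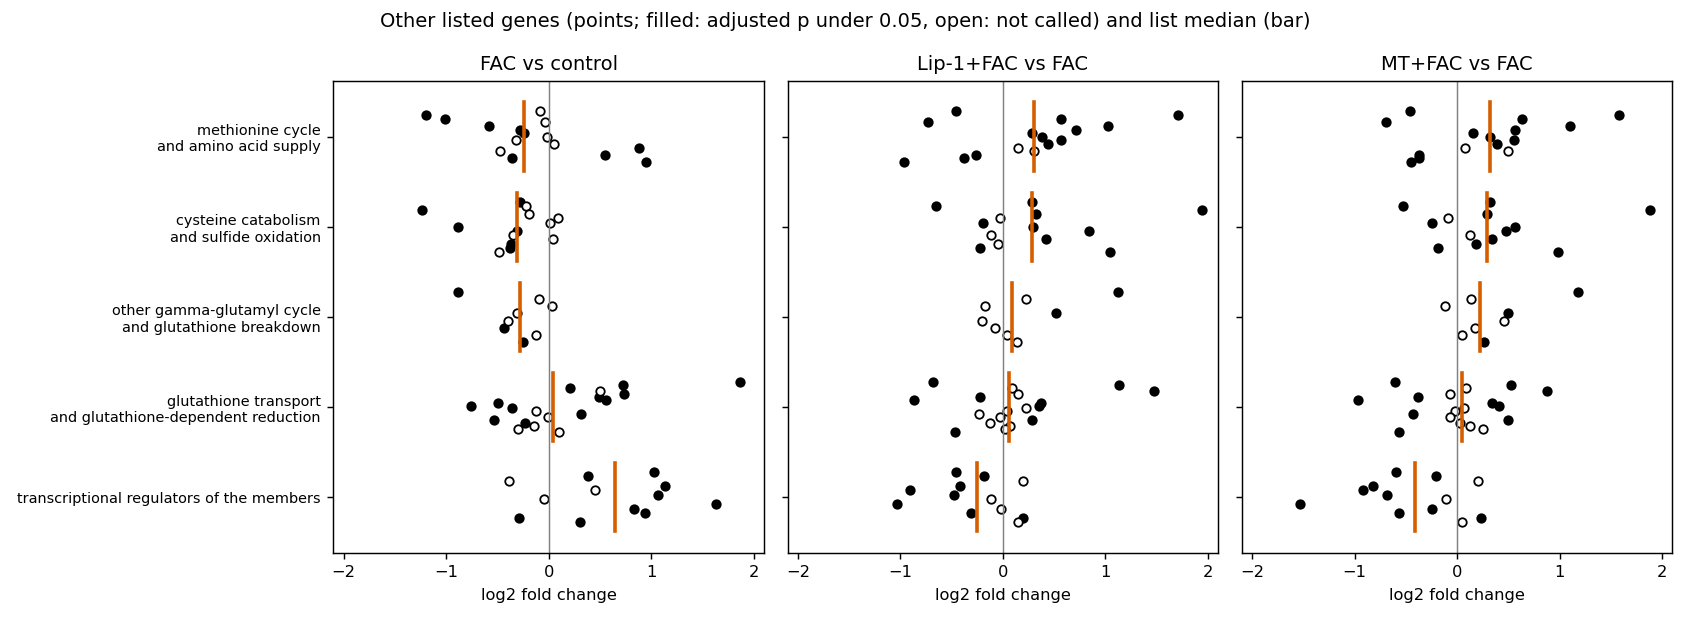
Log2 fold changes (x axis) of the other listed genes, one point per gene, grouped by list (y axis), in 3 comparisons; filled points passed an adjusted p of 0.05 and bars mark list medians. The regulators' median lies at 0.64 for FAC vs control, -0.25 for Lip-1+FAC vs FAC and -0.41 for MT+FAC vs FAC.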

How the data were processed

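Total RNA from 12 libraries was amplified with SMART-Seq v4 and prepared with Nextera XT, per the labels' protocols. The deposited values are raw counts of reads per gene, which the authors made with STAR on GRCm38, per the submitters' processing notes. The STAR version and the annotation are not given in the sources used here. Unstranded counts were used. Groups and replicate numbers came from sample titles. Names and coordinates came from GENCODE M21 (260 of 55487 identifiers unmatched). Genes held 75.8% to 81.2% of the reads listed, and reads assigned to no gene were left out.

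CPM are TMM-scaled counts relative to library size. All tests were edgeR 4.0.16 quasi-likelihood F tests in R 4.3.3 (filterByExpr, robust fit, 12 libraries together, no covariate, 13535 genes, two-sided, Benjamini-Hochberg), tested on simulated data first. An SE is the log2 fold change divided by the root of F. The common biological coefficient of variation was 9.71%. Reads carry no molecular identifiers, so counts are not independent molecules. Alternatives were other scalings, filters, DESeq2 1.42.0, subsets of libraries, a replicate block, summed stranded counts, thinning to 22991598 counts, and GC and length offsets.

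The members, lists and tests were chosen with earlier results of these data known. From each list, the text names the called gene with the largest rise and fall (mean of at least 5 CPM), and for Slc7a11, Chac1 and Cth the 5 genes most correlated in log2 CPM (prior count 2). Similar transcripts were sought with blastn 2.17.0+ (at least 200 bases at 95% identity).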

Additional observations from a re-analysis of the deposited data

Results flagged for a closer look

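The log2 effects of Mito-TEMPO and of liproxstatin-1 in FAC-treated cells differed for 3 of the 10 genes by the direct edgeR comparison of the pretreated groups, where 1.34% of all genes were called. The Mito-TEMPO effect minus the liproxstatin-1 effect was -0.601 for Slc7a11, -0.284 for Gclm and -0.256 for Gsr. The Slc7a11 and Gclm differences stayed called on leaving out each library in turn, and the Gsr difference was lost in 5 of 6 such fits (-0.293 to -0.229).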

How the results depend on the processing

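The members called stayed within 1.5 times the reported number in every comparison and alternative. Leaving out a library gave 7 to 8 members in FAC vs control, 6 to 7 in Lip-1+FAC vs FAC, 5 to 7 in MT+FAC vs FAC and 2 to 3 in MT+FAC vs Lip-1+FAC. Of the members' fold changes, 328 kept direction and call on leaving out a library, 24 lost the call, 3 gained one and 5 reversed. Under the other alternatives 573 kept both, 8 lost the call, 2 gained one and 11 reversed. The genes called between MT+FAC and Lip-1+FAC, 182 as reported, numbered 477 with no low-count filter, 435 with DESeq2, 312 with only the compared libraries and 74 to 156 on leaving out a library. Of the reported calls 34.6% were higher in MT+FAC, against 46.7% with upper-quartile scaling, 49.7% with no low-count filter, 44.8% with DESeq2 and 24.4% with GC and length offsets. The cause was not tested.

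Every reversal was of a fold change that was not called. Cth in FAC vs control (-0.002) was 0.016 with RLE scaling, 0.011 with no low-count filter, 0.005 at a mean of at least 5 CPM, 0.012 with DESeq2, 0.015 with only the compared libraries, 0.008 with stranded columns summed, 0.014 when thinned, 0.146 with GC and length offsets, 0.052 without control replicate 2 and 0.099 without FAC replicate 3 (leaving out a library: -0.065 to 0.099). Gss in FAC vs control was 0.023 without control replicate 3 (-0.248 to 0.023). With GC and length offsets, Gclc and Gclm in MT+FAC vs FAC were -0.063 and -0.013, and Ggct in Lip-1+FAC vs control was -0.013. Ggct there was -0.025 without control replicate 1 (-0.025 to 0.285), and Cth in MT+FAC vs Lip-1+FAC was -0.039 without MT+FAC replicate 2 (-0.039 to 0.092). The cause was not tested.

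No pairing of the libraries by replicate number was seen, although 3 libraries per group are too few to exclude one. Same-numbered libraries of different groups had correlated deviations of -0.249 to 0.164, over 0.1 in 3 of 18 pairs, and 14 of 36 comparisons matched best with their own number. With a replicate block the members called numbered 7, 8, 6, 3, 8 and 8 in the 6 comparisons in the order above, those against control last, as without it, and the genes called 4863, 5278, 5488, 193, 3961 and 2553. Depth limits Ggct most, at 35 to 93 counts per library.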
